A study of Mus musculus with 16 samples.

Results

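Among transcripts that sham-operated mouse hearts expressed at moderate levels, 100 probes were lower after ischemia/reperfusion (I/R) injury in both genotypes of the study. They are 100 of 25697 probes on the array. A probe was taken as a member when its mean deposited intensity over the 8 sham arrays lay above 230 and below 3500, and when its median after I/R was at most 0.65 times its sham median in wild-type and in transgenic hearts alike. The sham band alone held 6184 probes, of which the members are 1.62%. The I/R and sham intensities chose the members, so the fall itself is described here without a test. The genotypes were not compared by the rule, and their differences were tested. The limit on both ratios leaves out probes that met it in only a single genotype, so the choice of members favours a fall in both.

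Hearts came from C57BL/6J mice. WT_Sham were wild-type littermates after a sham operation and WT_IR were wild-type littermates after I/R, whereas TG_Sham and TG_IR carried AKIP1 overexpression and had the same operations. Each group held 4 mice with 1 Illumina bead array per mouse, and 2 arrays of each group lay on each of the 2 slides. For the promoter of the transgene, the age of the mice, the durations of ischemia and reperfusion and the part of the heart taken, the sources used here give nothing.

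In I/R, blood flow to heart muscle is interrupted and then restored, and muscle cells can be lost both while flow is absent and after it returns. AKIP1 is a small protein that binds the catalytic subunit of protein kinase A, the kinase that carries adrenergic signals in heart muscle. In tissue RNA of this kind, fewer cells of a type and less RNA per cell cannot be told apart. No table used here links a probe to its gene, and RefSeq's gene list holds 0 of these IDs. The members are therefore given by number and by a few IDs. The transgene, markers of cell types and gene groups could not be checked, and no sequence is shown.

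The deposited intensities were linear, with array medians of 178.8 to 178.9 and a lowest value of 161.5, and Pearson's r over the log2 values of all probes was 0.959 to 0.997 between arrays of a group. One injured array, labelled WT_IR replicate 2, lay close to the sham arrays for the members. Values that rest on it are given with and without it.

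The fall was moderate for most members and deep for few. In wild type the ratio of the I/R median to the sham median ran from 0.285 to 0.6495 over the 100 members, with a median of 0.571 and quartiles of 0.539 and 0.619. In transgenic hearts it ran from 0.385 to 0.649, with a median of 0.574 and quartiles of 0.520 and 0.620. Without WT_IR replicate 2, the wild-type ratio of the same members ran from 0.248 to 0.624. Its median was then 0.513 and its quartiles 0.458 and 0.551, so the likeness of the genotype medians rested on that array. With all arrays, the ratio was below 0.5 for 12 members in wild type, for 17 in transgenic hearts and for 6 in both. For 27 members both ratios lay above 0.6, near the limit of the rule. The members just inside that limit stood at 0.6495, 0.6489 and 0.6458 in wild type and the probes just outside at 0.6508, 0.6509 and 0.6531. In transgenic hearts the nearest members stood at 0.6494, 0.6489 and 0.646 and the nearest probes outside at 0.6507, 0.6541 and 0.6546. In the sham band, 37 probes met the limit in wild type alone and 98 in transgenic hearts alone. Both counts include WT_IR replicate 2. Without that array the rule found 158 members in place of 100, so no genotype difference is read from these counts.

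The background left in the intensities limits how low a ratio can go. A probe with a sham mean of 230 that fell to the array median would have a ratio of 0.777, and a sham mean of 275.1 is needed for 0.65 times it to equal the array median. In the band, 1536 probes lay under that level. The lowest sham mean among members was 405.1, followed by 431.8 and 482.0, well above the lower limit of 230, and no probe under 230 met both ratios. The median sham mean was 988.9 for the members and 366.6 for the band. At the upper limit, the brightest members had sham means of 3449, 3251 and 3144, and 10 probes brighter than 3500 met both ratios, the nearest at 3789. On the injured arrays every member stayed above the array median. The lowest of the 800 member intensities on injured arrays was 197.7, and 0 of the 800 lay within 10% of its array's median. That margin was a chosen cut, and whether such intensities lie above background was not tested. Across the 100 members, the mean of both ratios correlated weakly with the log2 sham mean (Pearson's r = -0.135, a description across probes that share the same arrays).

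With the background removed by the normexp method (offset 50), the same 100 members had median ratios of 0.517 in wild type and 0.517 in transgenic hearts, with lowest ratios of 0.227 and 0.305. These wild-type ratios include WT_IR replicate 2. Applied to those corrected values, the rule found 239 probes, and these included all 100 members. Raised probes outnumbered lowered ones on the deposited scale. In the same band, 214 probes (3.46%) had both ratios at or above the inverse of 0.65, against the 100 lowered. On the corrected values the counts were 218 raised and 239 lowered, so the order of these counts turned with the background correction.

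The depth of the loss differed more between injured wild-type hearts than between injured transgenic hearts, mostly through WT_IR replicate 2. This difference in spread was not tested. Each array was expressed as a ratio to the sham median of its own genotype, and the median over the 100 members was taken. On WT_IR replicates 1, 2, 3 and 4 this median was 0.480, 0.909, 0.490 and 0.633. On TG_IR replicates 1 to 4 it was 0.534, 0.532, 0.594 and 0.630. The 4 transgenic hearts thus lay within the range of the wild-type hearts, and WT_IR replicate 2 stood apart from the other 7 injured hearts. The mean of the array medians was 0.628 ± 0.200 in WT_IR (SD, n = 4), 0.534 ± 0.086 without replicate 2 (n = 3) and 0.572 ± 0.048 in TG_IR (n = 4). On the 8 sham arrays the same median lay between 0.954 and 1.04. As deposited intensity, the median over the members was 924.6 to 1078 on the sham arrays. It was 459.1, 931.1, 480.4 and 618.0 on WT_IR replicates 1 to 4 and 511.3, 489.3, 575.7 and 578.8 on TG_IR replicates 1 to 4. Ratios at or below 0.5 were reached by 60, 0, 55 and 5 members on the WT_IR arrays and by 32, 37, 16 and 11 on the TG_IR arrays, so that WT_IR replicates 1 and 3 showed the deepest loss and WT_IR replicate 4 resembled TG_IR replicate 4.

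WT_IR replicate 2 was the highest WT_IR array for 100 of the 100 members, and for 92 of them replicate 4 was the next highest. Because a median of 4 is the mean of the 2 middle values, the wild-type limit was in most cases set by replicate 4 and 1 of the other 2 hearts. On replicate 2, 25 members lay above their WT_Sham median, 3 were at or below 0.65 times it, and 39 lay below all 4 WT_Sham arrays. Single sham arrays lay below the other 3 of their group for 8 to 42 members. The probes that I/R raised showed the same position of this heart: their median ratio was 0.978 on WT_IR replicate 2 against 1.66 to 2.28 on the other WT_IR arrays. The lowest of the 8 injured arrays was WT_IR replicate 1 for 44 members, TG_IR replicate 2 for 29, WT_IR replicate 3 for 14, TG_IR replicate 1 for 12 and WT_IR replicate 4 for 1. TG_IR replicates 3 and 4 were the lowest for 0 members.

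In wild type, all 4 I/R arrays lay below all 4 sham arrays for 39 of the 100 members, against 4.65% of all 25697 probes. Without WT_IR replicate 2 this held for 98 members, against 13.0% of all probes. In transgenic hearts it held for 95 members, against 10.2% of all probes. All 8 injured arrays lay below all 8 sham arrays for 25 members (0.961% of all probes), and the 7 injured arrays other than WT_IR replicate 2 did so for 89 (5.11%). The rule selected on these contrasts, so the counts describe how cleanly the members separate and nothing is read from the gap to the background.

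Within a group, the members' median SD between hearts was above that of other probes of like brightness in sham. The SD of log2 deposited intensity was compared with that of the 746 band probes that were no members and had sham means between the members' quartiles. This match was on sham brightness only, and the members were dimmer on most injured arrays. Over the members its median was 0.122 in WT_Sham, 0.146 in TG_Sham and 0.162 in TG_IR (n = 4 each). The like-bright probes had medians of 0.097, 0.106 and 0.122. In WT_IR the members' median SD was 0.448 (n = 4), or 0.257 without replicate 2 (n = 3), against 0.208 and 0.143 for the like-bright probes. The raised probes had median SDs of 0.156, 0.123 and 0.200 in WT_Sham, TG_Sham and TG_IR. In WT_IR theirs was 0.576, or 0.306 without replicate 2, above that of the members. These differences in spread were not tested. The highest array of a group exceeded the lowest by a median of 1.21-fold in WT_Sham, 1.25-fold in TG_Sham and 1.29-fold in TG_IR, and by 1.99-fold in WT_IR (1.41-fold without replicate 2).

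ILMN_1241151 had the lowest mean of both ratios. Its deposited intensities were 1554, 1618, 1365 and 1544 on WT_Sham replicates 1 to 4 and 306.6, 782.6, 384.7 and 497.8 on WT_IR replicates 1 to 4. In wild type the groups did not overlap, and the ratio of medians was 0.285. On TG_Sham replicates 1 to 4 it stood at 607.6, 559.4, 1383 and 1332, and on TG_IR replicates 1 to 4 at 521.2, 275.1, 517.9 and 639.6. Here TG_Sham replicates 1 and 2 lay near the injured hearts and well below the other 6 sham arrays, and both lay below TG_IR replicate 4, so that the transgenic groups overlapped at a ratio of 0.536.

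ILMN_2616226 came next. It stood at 2789, 1246, 2215 and 2229 on the WT_Sham arrays and at 844.8, 1706, 500.1 and 1111 on the WT_IR arrays. WT_Sham replicate 2 was low and WT_IR replicate 2 high, and these 2 arrays crossed. On the TG_Sham arrays it stood at 2419, 1263, 2827 and 1623, and on the TG_IR arrays at 775.8, 786.7, 779.5 and 777.9. The highest sham heart thus exceeded the lowest 2.24-fold in either genotype, whereas the 4 injured transgenic hearts lay within 1.01-fold of each other, and the transgenic groups did not overlap. The ratios were 0.440 in wild type and 0.385 in transgenic hearts, the lowest of any member in the latter.

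ILMN_2625893 showed another pattern. It was chosen after its values were seen, because it had the widest spread of any member in TG_Sham (SD 1.08 log2, n = 4). It stood at 534.1, 1018, 2705 and 2264 on TG_Sham replicates 1 to 4 and at 2574, 2070, 2432 and 1859 on the WT_Sham arrays. TG_Sham replicates 1 and 2 lay below the lowest wild-type sham heart. On the TG_IR arrays it stood at 718.9, 268.3, 702.8 and 739.2, with replicate 2 far below the other 3, and on the WT_IR arrays at 782.5, 2182, 538.3 and 1082, with replicate 2 within the WT_Sham range. The ratios of medians were 0.414 in wild type and 0.433 in transgenic hearts.

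This split of the transgenic sham hearts was shared by a small group of members. TG_Sham replicates 1 and 2, which lay on slide 1, were lower than TG_Sham replicates 3 and 4 on slide 2 by more than 0.5 log2 (deposited intensity, mean of each pair) for 10 members, and higher by that much for 0. The median difference was -0.16 log2 over all 100 members and ran from -1.75 to 0.43. Between the same slides, WT_Sham replicates 1 and 2 differed from replicates 3 and 4 by a median of -0.03 log2 (-0.43 to 0.49). For the 10 members, which were picked on the transgenic difference, this wild-type difference was -0.07 to 0.16. An effect of slide was not tested. TG_Sham replicates 1 and 2 both lay below all the other 6 sham arrays for 27 of the 100 members, against 11.4% of the remaining band. That band was dimmer in sham than the members, and the share over all probes was not computed, so nothing is read from this gap.

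The 10 members also differed on other arrays. Their median ratio to the sham median was 0.761 and 0.737 on TG_Sham replicates 1 and 2 and 1.27 and 1.36 on replicates 3 and 4, while it was 0.957 to 1.03 on the 4 WT_Sham arrays. TG_IR replicate 2 was the lowest TG_IR array for 9 of the 10 and for 51 of the other 90 members. It lay below the mean of the other 3 TG_IR arrays by a median of 0.56 log2 (differences from -1.42 to 0.48) for the 10 and by a median of 0.14 log2 for the other 90. On TG_IR replicate 1 the median difference of the 10 was -0.0091 log2. Their median ratio was below that of the other 90 on each of the 8 injured arrays. On WT_IR replicates 1 to 4 it was 0.371, 0.728, 0.424 and 0.550, against 0.487, 0.912, 0.501 and 0.638 for the other 90. On TG_IR replicates 1 to 4 it was 0.497, 0.441, 0.546 and 0.572, against 0.534, 0.543, 0.595 and 0.634. Across all 100 members, the TG_Sham difference between slides correlated with the deviation of TG_IR replicate 2 (Pearson's r = 0.648), whereas r was -0.200 for that of TG_IR replicate 1, both as descriptions across probes on shared arrays. On both values of the first r, ILMN_2625893 (-1.75 and -1.42 log2) and ILMN_1241151 (-1.22 and -1.02 log2) lay lowest. The r without them was not computed. ILMN_2846865, also among the 10, deviated upward on TG_IR replicate 2 (0.48 log2). These 10 members were picked on their values and carry no test, and what sets these hearts apart was not tested.

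With group means removed and WT_IR replicate 2 left out, 1 component held 49.2% of the remaining variance of the members and the next 15.9%, so that hearts of 1 group tended to be high or low for many members at the same time. On it TG_IR replicate 2 (loading -0.327), TG_Sham replicates 1 and 2 (-0.319 and -0.264) and WT_IR replicates 1 and 3 (-0.249 and -0.242) lay at the low end. WT_IR replicate 4 (0.491), TG_Sham replicates 3 and 4 (0.314 and 0.269) and TG_IR replicate 4 (0.304) lay at the high end. With group means removed, the loadings within a group balance out, so its high and low hearts mirror each other.

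Genotypes were compared with limma on log2 intensities after background correction, fitted on all 25697 probes and 16 arrays, with p-values adjusted by Benjamini-Hochberg over all probes. No member was called as different between TG_Sham and WT_Sham. The count was 0 of 100, against 4 of all probes (0.0156%), and the smallest adjusted p of a member was 0.814. At an unadjusted p under 0.05 there were 2 members, against 5.97% of all probes. That count was 21 (7.33% of all probes) when only the sham groups entered the fit, and 13 (4.11%) on slide 2 alone. The median member difference, TG_Sham minus WT_Sham, was -0.06 log2 and the range -0.89 to 0.51, with 69 members lower and 31 higher in transgenic hearts (49.5% of all probes were higher). Without TG_Sham replicates 1 and 2 the direction of the median turned to 0.04 log2, with 38 lower and 62 higher. On slide 1 alone the median was -0.14 log2 and on slide 2 alone 0.03 log2. TG_Sham arrays lay below all WT_Sham arrays for 3 members (1.72% of all probes) and above all of them for 4 (2.12%). WT_IR replicate 2 enters this comparison only through the shared estimate of spread, and without it 0 members were called (0.0233% of all probes called), with 11 at an unadjusted p under 0.05 (6.84% of all probes).

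After I/R, 0 of 100 members were called between TG_IR and WT_IR, as were 0 of all probes (0%), and the smallest adjusted p of a member was 0.955. At an unadjusted p under 0.05 there were 3 members, against 4.92% of all probes. That count rose to 24 (7.30% of all probes) without WT_IR replicate 1 and to 21 (7.74%) without WT_IR replicate 3, with 97 and 92 members lower in transgenic hearts. The median member difference, TG_IR minus WT_IR, was -0.20 log2, with 85 members lower and 15 higher in transgenic hearts. This direction rested on WT_IR replicate 2. Without it the median was 0.05 log2, with 39 members lower and 61 higher, and 0 members were called (0.00389% of all probes called), with 9 members at an unadjusted p under 0.05 (4.14% of all probes). On slide 1, which carries that array, the median was -0.44 log2, and on slide 2 it was 0.07 log2. TG_IR arrays lay below all WT_IR arrays for 0 members (1.34% of all probes) and above all of them for 0 (1.22%). Without WT_IR replicate 2 these counts were again 0 and 0, against 2.45% and 2.60% of all probes.

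The size of the fall was compared by limma's interaction term, the I/R change in transgenic minus that in wild-type hearts. The rule set an upper limit on the ratio in both genotypes, which leaves out probes that met it in only a single genotype. It sets no lower limit, so the changes of a member can still differ. The rule does favour members whose changes are alike, so nothing about genotype is read from the low counts that follow. No member was called (0 of 100, and 0% of all probes), the smallest adjusted p was 0.999, and 0 members had an unadjusted p under 0.05, against 4.15% of all probes (8 members on slide 2 alone and 5 without WT_IR replicate 1, against 3.21% and 5.12% of all probes). On the log2 scale after background correction the median member change was -0.85 in wild type (-2.05 to -0.56) and -0.97 in transgenic hearts (-1.71 to -0.68). The median interaction was -0.14 log2, a deeper fall in transgenic hearts for 81 members and a shallower one for 19. Without WT_IR replicate 2 it turned to 0.11 log2, with 18 deeper and 82 shallower in transgenic hearts, a median wild-type change of -1.08 log2, 0 members called (0% of all probes) and 4 at an unadjusted p under 0.05 (4.12% of all probes). On the deposited scale the ratio was lower in wild type for 47 members and in transgenic hearts for 53. The same counts were 83 and 17 without WT_IR replicate 2. Members share hearts and are not independent, so that such counts are no test of genotype.

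The width of the intervals depended on which arrays shared the estimate of spread. The 95% interval of a member's genotype difference reached 0.45 log2 to either side in the median (0.20 to 1.26), both after sham and after I/R, and that of the interaction 0.63 log2 (0.28 to 1.78). Without WT_IR replicate 2 the medians were 0.31 log2 after sham, 0.34 after I/R and 0.46 for the interaction. With only the 2 sham groups in the fit, the median SE of the sham difference was 0.10 log2, against 0.21 with all 16 arrays. For ILMN_1241151 the difference TG_Sham minus WT_Sham was -0.88 log2 (SE 0.43, adjusted p = 0.861 by limma, interval -1.80 to 0.04). TG_Sham stood at 9.57 ± 0.82 and WT_Sham at 10.45 ± 0.12 (log2 intensity, SD, n = 4 each). Its difference after I/R was 0.01 log2 (SE 0.43), at 8.41 ± 0.76 in TG_IR and 8.40 ± 0.77 in WT_IR, and its interaction was 0.89 log2 (SE 0.61, limma adjusted p = 0.999). Without WT_IR replicate 2 its sham difference of -0.88 log2 had an interval reaching 0.81 to either side, and its interaction became 1.22 log2 with an interval reaching 1.20 to either side. Both of these unadjusted intervals left out 0, but neither comparison passed after adjustment over all probes (limma adjusted p = 0.714 and 0.9997). For ILMN_2616226 the interaction was -0.22 log2 (SE 0.52) with an interval of -1.33 to 0.89, and for ILMN_2625893 it was -0.21 log2 (SE 0.83) with an interval of -1.99 to 1.56. Without WT_IR replicate 2 these interactions were 0.10 log2 (0.97 to either side) and 0.20 log2 (1.66 to either side). None of the 3 probes passed the adjusted threshold for a genotype difference, and a p that misses it does not show that the genotypes were alike.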

How the data were processed

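Per the labels' protocols, total RNA from TriReagent extraction was amplified to biotinylated cRNA (Illumina TotalPrep). The deposited values are linear probe intensities whose distributions the authors had already equalised between arrays, as the values show. For software, background correction and probe filter, nothing is given in the sources used here. Ratios were taken on these deposited intensities. For tests, intensities were background-corrected by normexp (offset 50), log2 transformed without further normalization, and fitted with limma 3.58.1 in R 4.3.3 (4 group means, 16 arrays). P-values are two-sided and adjusted over 25697 probes, with a threshold of 0.05. The fit was tested on simulated data. Replicate numbers follow accession order.

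The members and all lists were chosen with earlier results of these data known. Planned gene lists and cell type markers could not be used, since probes are not paired with genes. Named by rule were the 2 members with the lowest mean ratio and any member called (0). Nothing beyond the labels says that mice of a group were handled separately, so the spread may be partly technical.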

Additional observations from a re-analysis of the deposited data

Results flagged for a closer look

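A search for a lone array at a distance from the rest of its group was run on the 3 named probes and on the median over the members. By chance about 1 search in 20 finds one, and here 1 of 16 did. ILMN_2625893 stood at 7.25 log2 (after background correction) on TG_IR replicate 2, against 9.20 to 9.28 on the other 3 TG_IR arrays. This probe was picked for its wide spread in TG_Sham. It also had the widest spread of any member in TG_IR (SD 0.713 log2, deposited intensity). The chance rate therefore does not apply to it. Over all members and groups, 13 of 400 such searches (3.25%) found an array, where chance would give 20. Of these, 4 fell on WT_Sham replicate 4 and 3 on TG_IR replicate 2, and 0 on WT_IR replicate 2, although it was the highest WT_IR array for all 100 members.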

How the results depend on the processing

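The number of members followed the rule closely. It was 50 at a ratio limit of 0.60, 211 at 0.70, 60 with group means in place of medians and 239 on background-corrected values, and 62 to 158 when 1 array at a time was left out (158 without WT_IR replicate 2, 62 and 64 without WT_IR replicates 1 and 3). It stayed at 100 with either other lower sham bound, and was 113 without TG_Sham replicates 1 and 2, a setting chosen after seeing the data. The other lower bounds could not change the count, since no probe under 230 met both ratios and the lowest member sham mean was 405.1. No member was called in any of the 3 genotype tests under any setting run. Over all probes, the count after sham was 4. It was 2 among probes brighter than the median, with only the groups compared, on slide 2 alone and without TG_Sham replicates 1 and 2, 0 on slide 1 alone, and 2 to 6 when 1 array was left out. After I/R it was 0, but 1 with array weights and on slide 2 alone, and 0 to 1 with 1 array left out. The interaction gave 0 throughout.

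The median member change in transgenic hearts was -0.79 log2 without background correction, which compresses changes, and -1.04 to -0.89 with 1 array left out. In wild type it ran from -1.08 (without WT_IR replicate 2) to -0.68. The median TG_Sham minus WT_Sham difference was -0.14 log2 on slide 1, 0.031 on slide 2 and 0.045 without TG_Sham replicates 1 and 2, and -0.11 to -0.02 with 1 array left out. TG_IR minus WT_IR ran from -0.33 to 0.05, and the interaction from -0.28 to 0.11, both above 0 without WT_IR replicate 2. With array weights, where that array weighed 0.377, they were -0.07 and 0.004. Of 222 values of the 3 named probes under other settings, 200 kept their direction, 22 turned and 0 crossed the threshold. Many of these settings could not move the estimate. Leaving out a sham array, for example, leaves TG_IR minus WT_IR as it was. The count of 200 is therefore no measure of stability. For ILMN_1241151 after I/R, slide 1 alone gave -0.49 log2, and leaving out 1 array gave -0.26 to 0.38. For ILMN_2616226 after I/R, slide 2 gave 0.10 and leaving out 1 array -0.66 to 0.024 (the latter without WT_IR replicate 2). Its sham difference was 0.079 without TG_Sham replicates 1 and 2 and -0.33 to 0.14 with 1 array left out, and its interaction was 0.16 on slide 2 and -0.58 to 0.10 with 1 array left out. For ILMN_2625893, the sham difference was 0.17 without TG_Sham replicates 1 and 2 and 0.23 on slide 2, and the interaction 0.10 with array weights and -0.72 to 0.28 with 1 array left out. The cause of these shifts was not tested. Dim probes with a sham mean near 230 could not meet the ratio limit on the deposited scale. No paired analysis was possible because each mouse has a number of its own in the labels, shared with no mouse of another group.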
